A study of Fukomys damarensis and Heterocephalus glaber and Cavia porcellus with 28 samples.

Results

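Transcript levels of genes that join neighbouring cells were compared between the hearts and livers of 4 rodent species. The group holds 10 genes picked by name: the connexins Gja1, Gja5, Gjb1 and Gjb2, the desmosomal genes Dsp, Pkp2, Jup, Dsg2 and Dsc2, and the classical cadherin Cdh2. A row of the deposited tables was matched for 7 of the 10 in each tissue, among 13928 rows, and all 7 passed the filter on low values. Gja1, Gjb1 and Gjb2 are not analysed here. Gja5 is therefore the only connexin of the group with values.

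The groups were 2 mole-rat species, naked and Damaraland, and as outgroups the guinea pig and the mouse; the labels name no treatment and no genotype. Heart libraries came from 3 naked mole-rats aged 13 to 17 months, 5 Damaraland mole-rats aged 36 to 48 months, 3 guinea pigs aged 2.3 months and 3 mice aged 2 months. Liver libraries came from 4, 5, 3 and 2 animals in the same order and with the same age ranges. All animals were males except 1 Damaraland female, whose liver is replicate 4. Strain and the part of the heart that was sampled are not given in the sources used here. Species and age cannot be told apart in this design, since no species was sampled at the age of another. In the labels 18 animals are named, and 10 of them gave both tissues; the age of 1 Damaraland animal differs between its heart and liver labels.

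Cardiomyocytes are coupled end to end at the intercalated disc. There, desmosomes anchor the intermediate filament desmin, adherens junctions anchor actin, and gap junctions made of connexins pass current from cell to cell. A desmosome is built from the transmembrane cadherins desmoglein and desmocollin, whose tails bind plakoglobin and plakophilin, which in turn bind desmoplakin and the filaments. Mutations in human DSP, PKP2, JUP, DSG2 and DSC2 are known causes of arrhythmogenic cardiomyopathy. In liver, hepatocytes carry desmosomes linked to keratin filaments, adherens junctions that hold both E- and N-cadherin, and gap junctions of other connexins.

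Values are variance-stabilised and log2-like, as deposited, except where scaled reads are named. Scaled reads are the whole read counts recovered from that scale and divided by the size factor of the library, and they carry no correction for transcript length. The scale compresses low values: a doubling from 100 scaled reads moved the heart value by 0.679, and a doubling from 1000 moved it by 0.946. Recovered reads ran from 4089633 to 26985779 per heart library and from 11220505 to 21467939 per liver library. The shallowest library was the third naked mole-rat heart. A difference was called when limma gave a Benjamini-Hochberg adjusted p under 0.05 over all genes tested and the difference was at least 1. Errors are SD over animals for means and limma standard errors (SE) for differences. In whole tissue, fewer cells of a type and less RNA per cell cannot be told apart.

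In heart, the mean of both mole-rats set against the mean of both outgroups called 3 of the 7 genes, beside 23.4% of all genes tested. Gja5 was higher (1 of 7, background 10.8%), and Jup and Dsg2 were lower (2 of 7, background 12.6%). The median difference of the 7 was -0.30, beside -0.01 over all genes tested. Against each of the other species, Damaraland hearts were called in 3 of 7 genes (background 6.76%), mouse hearts in 1 (background 10.4%) and naked mole-rat hearts in 0 (background 9.02%). Jup was called lower in both mole-rats against both outgroups, 1 of 7 (background 4.68%, and 2.62% for lower calls alone). The 6 pairs of species gave 18 calls in 42 tests. Naked against Damaraland mole-rat gave 4 (background 29.4%), naked mole-rat against guinea pig 1 (33.0%) and naked mole-rat against mouse 3 (38.2%). Damaraland mole-rat against guinea pig gave 4 (29.7%), Damaraland mole-rat against mouse 5 (34.9%) and guinea pig against mouse 1 (32.1%). These pairs share groups, so the counts are not independent of each other.

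**Figure D1:**
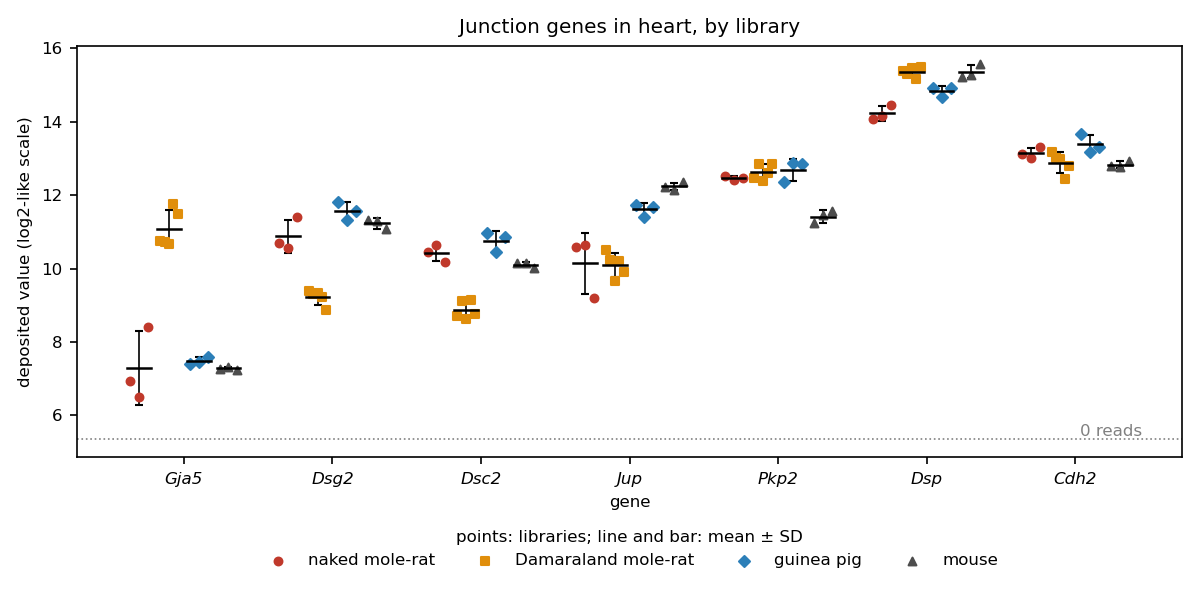
Deposited values of the 7 junction genes in the 14 heart libraries (vertical axis, log2-like scale), grouped by gene; points are libraries, short lines are species means and bars are SD, and the dotted line marks 0 reads. Damaraland libraries stand above all others for Gja5 and below all others for Dsg2 and Dsc2, and both mole-rats lie below both outgroups for Jup.

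Gja5 (ENSMUSG00000057123) encodes connexin 40, the gap junction protein of atrial myocytes, the fast conduction system and arterial endothelium. Its scaled reads in Damaraland hearts were 1648, 1599, 1559, 3385 and 2769. In naked mole-rat hearts they were 54.1, 27.2 and 263. In guinea pig hearts they were 94.9, 103 and 119, and in mouse hearts 82.9, 87.9 and 80.2. Every Damaraland library lay above every library of the other species, and among Damaraland hearts replicates 4 and 5 were the highest. The means were 11.08 ± 0.50 (SD, n = 5) in Damaraland mole-rat and, with n = 3 each, 7.29 ± 0.998 in naked mole-rat, 7.28 ± 0.039 in mouse and 7.48 ± 0.104 in guinea pig. Damaraland mole-rat exceeded guinea pig by 3.60 (SE 0.33; limma adjusted p = 8.84e-08) and mouse by 3.80 (SE 0.33; limma adjusted p = 3.87e-08). Naked minus Damaraland mole-rat was -3.79 (SE 0.33; limma adjusted p = 5.3e-08). In mean scaled reads, Gja5 was 20.8-fold higher in Damaraland hearts than in guinea pig, 26.2-fold higher than in mouse and 19.1-fold higher than in naked mole-rat. The last of these folds rests on naked mole-rat replicate 3, the shallowest library and the highest of its species: without it the fold was 53.9 and naked minus Damaraland mole-rat -4.35 (SE 0.26; limma adjusted p = 1.46e-09). With voom on the recovered reads, which does not compress low values, Damaraland mole-rat exceeded guinea pig by 4.31 and mouse by 4.63 on the log2 scale, and naked minus Damaraland mole-rat was -5.41. With log2(scaled reads + 1) these differences were 4.29, 4.62 and -4.80, so the size of the last depended on the method. The remaining 3 species did not differ by a call: naked mole-rat minus mouse was 0.01 with a 95% interval from -0.78 to 0.80, and naked mole-rat minus guinea pig -0.19 (-0.98 to 0.60). These also rest on replicate 3, since the other naked mole-rat hearts lay below every mouse and guinea pig heart. Without it, naked mole-rat minus mouse was -0.55 (95% interval -1.15 to 0.04) and naked mole-rat minus guinea pig -0.75 (-1.35 to -0.16), neither of them called. The call for Gja5 in mole-rats against outgroups, 1.80 (SE 0.25; limma adjusted p = 7.73e-06), thus averages a Damaraland level far above the outgroups and a naked mole-rat level that differed from neither of them by a call.

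Marker genes of the cell types known to carry connexin 40 are given beside this difference. The summed scaled reads of 6 endothelial markers were 10314 to 15963 in Damaraland hearts, 14983 to 18403 in naked mole-rat, 11032 to 14502 in mouse and 14380 to 18740 in guinea pig. The Damaraland sums lay within or below the range of the other species. Within Damaraland hearts, replicates 4 and 5 had the highest sums, through 2 of the 6 markers: Vwf (8746 and 7182 scaled reads, against 3588 to 4469 in the other libraries) and Tie1 (917 and 899, against 482 to 585). The other 4 markers, Cdh5, Kdr, Pecam1 and Tek, summed to 6300.2 and 6206 in these libraries, inside the 6140.4 to 6767 of replicates 1 to 3. In Vwf, naked mole-rat hearts reached 8707 to 9368 with Gja5 at 27.2 to 263. The part of endothelial cells in the Gja5 difference was not tested.

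The atrial markers with a row, 3 of 4, summed to 2401 to 22435 in Damaraland hearts, 5815 to 37646 in naked mole-rat, 473 to 3439 in mouse and 528 to 18091 in guinea pig. The Damaraland range overlaps that of each other species, whereas every naked mole-rat heart lay above every mouse heart. The sums spread widely within each species. Naked mole-rat replicate 3 had the highest atrial sum and the highest Gja5 of its species, and guinea pig replicate 2 reached 18091 with 103 scaled reads of Gja5. Damaraland replicate 1 held 1648 scaled reads of Gja5 with an atrial sum of 2401. Within Damaraland hearts, replicates 4 and 5, the highest in Gja5, also had the highest atrial sums. These were 12692 and 22435, against 2401 to 11400 in replicates 1 to 3. The 4 smooth muscle markers summed to 9280 to 14470 in Damaraland hearts, above every other heart library (1719 to 5783). Here too Damaraland replicates 4 and 5 were the highest, at 10657 and 14470, against 9280 to 9473 in replicates 1 to 3. The part of atrial tissue and of smooth muscle in the Gja5 difference was not tested.

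**Figure D2:**
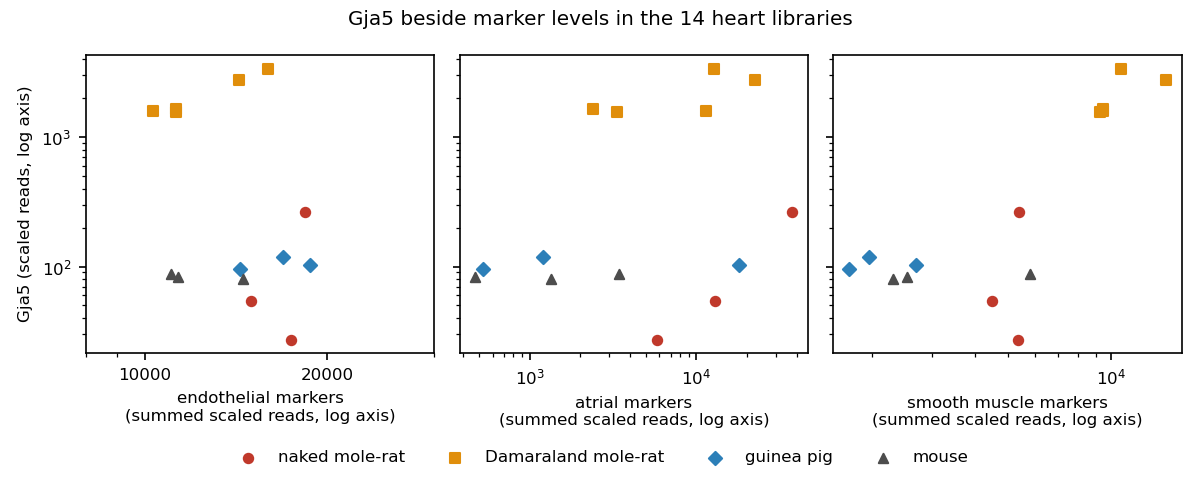
Gja5 (vertical axis, scaled reads, log axis) against the summed scaled reads of endothelial, atrial and smooth muscle markers (horizontal axes, log) in the 14 heart libraries, 1 point each. At overlapping endothelial and atrial sums the Damaraland points lie at 1559 scaled reads or more and all others at or below 263; on the smooth muscle axis the Damaraland points also stand apart, from 9280 upward.

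Desmoglein 2 and desmocollin 2, the desmosomal cadherins of heart muscle and simple epithelia, were both lowest in Damaraland hearts. Dsg2 (ENSMUSG00000044393) had 588, 551, 563, 515 and 386 scaled reads in Damaraland hearts. It had 1569, 1422 and 2611 in naked mole-rat, 3488, 2464 and 2934 in guinea pig, and 2496, 2446 and 2065 in mouse. No Damaraland library reached the lowest library of another species, while the other 3 species overlapped one another. The naked mole-rat overlap came from replicate 3 (2611), the shallowest library. The other naked mole-rat hearts lay below every mouse and guinea pig heart. The means were 9.22 ± 0.21 (SD, n = 5) in Damaraland mole-rat and, with n = 3 each, 10.88 ± 0.45 in naked mole-rat, 11.23 ± 0.145 in mouse and 11.56 ± 0.24 in guinea pig. Damaraland minus guinea pig was -2.34 (SE 0.19; limma adjusted p = 2.34e-08), Damaraland minus mouse -2.02 (SE 0.19; limma adjusted p = 1.12e-07) and naked minus Damaraland mole-rat 1.66 (SE 0.19; limma adjusted p = 1.43e-06). In mean scaled reads Dsg2 was 5.69-fold higher in guinea pig, 4.49-fold higher in mouse and 3.59-fold higher in naked mole-rat hearts than in Damaraland hearts. Without naked mole-rat replicate 3, naked minus Damaraland mole-rat was 1.40 (SE 0.17), still called. The Damaraland mean was then 0.348 of the naked mole-rat mean in scaled reads. Mole-rats against outgroups gave -1.35, called. Naked mole-rat minus mouse was -0.36 (95% interval -0.81 to 0.10) and naked mole-rat minus guinea pig -0.68 (-1.14 to -0.22), and without naked mole-rat replicate 3 they were -0.61 (-1.02 to -0.21) and -0.94 (-1.34 to -0.53), none of them called.

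Dsc2 (ENSMUSG00000024331) had 341, 477, 316, 481 and 351 scaled reads in Damaraland hearts, against 1323, 1503 and 1082 in naked mole-rat. Guinea pig hearts held 1906, 1312 and 1765, and mouse hearts 1048, 1048 and 955. As for Dsg2, the Damaraland libraries lay below all others. The differences were -1.88 (SE 0.17; limma adjusted p = 6.42e-08) from guinea pig, -1.23 (SE 0.17; limma adjusted p = 7.25e-06) from mouse, and 1.56 (SE 0.17; limma adjusted p = 6.64e-07) for naked minus Damaraland mole-rat. Naked mole-rat hearts differed by a call from neither outgroup: the difference was -0.33 from guinea pig (95% interval -0.73 to 0.07) and 0.32 from mouse (-0.08 to 0.72). The cardiomyocyte markers, 6 of 6 with a row, summed to 1157331 to 1606757 in Damaraland hearts, above the 492635 to 1079206 of the other species. Such a sum is weighted towards the most abundant markers. In mole-rats against outgroups the 6 markers differed by -0.55 to 0.72, with none called. The part of the cardiomyocyte share in the Dsg2 and Dsc2 differences was not tested.

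Plakoglobin, encoded by Jup (ENSMUSG00000001552), is shared by desmosomes and adherens junctions and can also act in Wnt signalling. Its scaled reads were 1468, 1513 and 504 in naked mole-rat hearts and 1380.3, 1118, 727, 1091 and 871 in Damaraland hearts. They were 3349, 2628 and 3222 in guinea pig hearts and 4703, 4458 and 5139.5 in mouse hearts. All 8 mole-rat libraries lay below all 6 outgroup libraries. The average difference was -1.81 (SE 0.21; limma adjusted p = 8.1e-07), and mean scaled reads were 3.56-fold higher in the outgroups. Damaraland minus guinea pig was -1.52 and Damaraland minus mouse -2.14. Naked mole-rat minus guinea pig was -1.47 and naked mole-rat minus mouse -2.10. Naked minus Damaraland mole-rat was 0.04 (95% interval -0.53 to 0.62), and 0.52 (0.10 to 0.94) without naked mole-rat replicate 3, neither called. Naked mole-rat replicate 3, the shallowest library, was the lowest of all hearts. Without it the difference between naked mole-rat and guinea pig was -0.99, just short of the size threshold, and no gene of the group was then called in both mole-rats.

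Plakophilin 2, encoded by Pkp2 (ENSMUSG00000041957), binds the desmosomal cadherin tails and is needed to place desmoplakin at the disc. It was lowest in mouse hearts, with 2325, 2717 and 2958 scaled reads, below every library of the other species. Naked mole-rat hearts held 5764, 5379 and 5553, guinea pig hearts 5154, 7419 and 7262, and Damaraland hearts 5577, 7353, 5238, 6102 and 7342.5. Guinea pig minus mouse was 1.27 (SE 0.19), Damaraland minus mouse 1.21 (SE 0.17) and naked mole-rat minus mouse 1.05 (SE 0.19), all called. Without mouse replicate 1 the last of these was 0.95 and no longer called. Between the 3 other species no difference exceeded 0.23 in size.

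Desmoplakin (Dsp, ENSMUSG00000054889) ties the plaque to the filaments. It was lowest in naked mole-rat hearts, with 17130.3, 18200.3 and 22499 scaled reads. Guinea pig hearts held 30686, 26066 and 31167, mouse hearts 38411, 39848 and 48501, and Damaraland hearts 36514 to 46301 with a median of 42771. No naked mole-rat library reached the lowest library of another species. Naked minus Damaraland mole-rat was -1.13 (SE 0.17; limma adjusted p = 2.07e-05) and naked mole-rat minus mouse -1.13 (SE 0.19), both called, while naked mole-rat minus guinea pig was -0.61 (SE 0.19) and not called. With quantile normalisation naked mole-rat minus mouse was -0.80 and the call was lost. The summed cardiomyocyte markers were lowest in naked mole-rat replicates 2 and 3 (492635 and 540322). Replicate 1, the lowest in Dsp, had a sum of 919825, above every guinea pig heart (739207 to 846954). The part of the cardiomyocyte share in the Dsp difference was not tested.

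N-cadherin, encoded by Cdh2 (ENSMUSG00000024304), is the classical cadherin of the intercalated disc. No pair of species was called for Cdh2 in heart. Scaled reads were 8762, 8255 and 10075 in naked mole-rat hearts, 5498 to 9226 with a median of 8097 in Damaraland hearts, 12922, 9160 and 10136 in guinea pig hearts and 6979, 6945 and 7737 in mouse hearts. The widest difference, guinea pig minus mouse, was 0.55 with a 95% interval from 0.13 to 0.98, and all guinea pig libraries lay above all mouse libraries.

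In liver, mole-rats against outgroups called 2 of the 7 genes, Jup and Dsg2, both lower in mole-rats, beside 28.1% of all genes tested in either direction and 13.0% lower. The median difference of the 7 was -0.06, beside 0.02 over all genes tested. By limma 0 of the 7 were called in both mole-rats against both outgroups (background 6.29%); the count was also 0 at an unadjusted p under 0.05 with no size threshold, and 0 by voom. Damaraland livers were called against each other species in 2 of 7 genes (background 8.81%), and naked mole-rat livers in 1 (background 10.3%). The 6 pairs gave 15 calls in 42 tests. Naked against Damaraland mole-rat gave 2 (background 34.2%), naked mole-rat against guinea pig 3 (37.8%) and naked mole-rat against mouse 3 (41.2%). Damaraland mole-rat against guinea pig gave 3 (36.2%), Damaraland mole-rat against mouse 3 (39.2%) and guinea pig against mouse 1 (37.2%). The share of genes called in these pairs is thus close to that of all genes, and the description below concerns single genes.

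**Figure D3:**
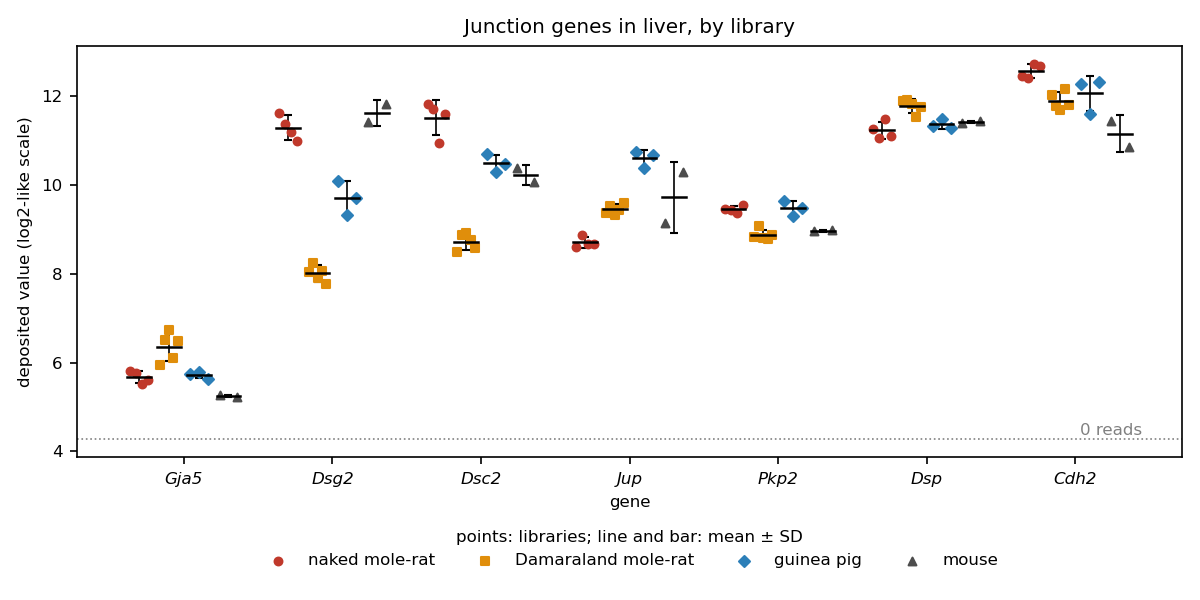
Deposited values of the 7 junction genes in the 14 liver libraries (vertical axis, log2-like scale), grouped by gene; points are libraries, short lines are species means and bars are SD, and the dotted line marks 0 reads. Dsg2 and Dsc2 span the widest ranges, with Damaraland lowest in both, and the 2 mouse libraries lie apart for Jup.

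The desmosomal cadherins differed most in liver, and Damaraland livers were again the lowest in both. Dsg2 scaled reads were 226, 267, 202, 230.4 and 181 in Damaraland livers and 3123, 2605, 2277 and 1980.0 in naked mole-rat livers. They were 1049, 598 and 798 in guinea pig and 2677 and 3577 in mouse. Naked mole-rat and mouse livers overlapped at the top, guinea pig stood between, and Damaraland lay below all other libraries. From lowest to highest, the means were 8.01 ± 0.18 (SD, n = 5) in Damaraland mole-rat, 9.70 ± 0.39 (n = 3) in guinea pig, 11.29 ± 0.28 (n = 4) in naked mole-rat and 11.61 ± 0.29 (n = 2) in mouse. Naked minus Damaraland mole-rat was 3.28 (SE 0.17; limma adjusted p = 3.89e-11) and Damaraland minus mouse -3.61 (SE 0.22; limma adjusted p = 2.93e-10). Damaraland minus guinea pig was -1.70, naked mole-rat minus guinea pig 1.58 and guinea pig minus mouse -1.91, all called. Naked mole-rat minus mouse was -0.33 (95% interval -0.80 to 0.15). In mean scaled reads Dsg2 was 14.1-fold higher in mouse and 11.3-fold higher in naked mole-rat than in Damaraland livers. The average of mole-rats against outgroups was -1.01, at the size threshold, and the call was lost in 6 of the fits that left out 1 library (-0.998 to -0.908), with array weights (-0.95), with a replicate block (-0.90), and with libraries centred on their median (-0.99) or upper quartile (-0.98). It averages mole-rat species that lie 3.28 apart.

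Dsc2 scaled reads were 320, 429, 445, 391 and 345 in Damaraland livers and 3573, 3316, 1916 and 3050.3 in naked mole-rat livers. Guinea pig livers held 1609, 1219 and 1387, and mouse livers 1298 and 1036. Naked mole-rat libraries lay above all others and Damaraland libraries below all others, with the outgroups overlapping between them. Naked minus Damaraland mole-rat was 2.80 (SE 0.17; limma adjusted p = 2.91e-10), a 7.68-fold difference of mean scaled reads. Damaraland minus guinea pig was -1.77 and Damaraland minus mouse -1.51. Naked mole-rat exceeded mouse by 1.29 and guinea pig by 1.03; the latter call was lost with quantile normalisation (0.88) and without naked mole-rat replicate 1 (0.93), naked mole-rat replicate 2 (0.96) or guinea pig replicate 2 (0.93). The average of mole-rats against outgroups was -0.24 (95% interval -0.55 to 0.07), as the mole-rats lay on opposite sides of the outgroups.

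Bile duct cells are epithelial cells of the liver that also carry desmosomes. Their markers with a row, 4 of 5, summed to 2307 to 3219 scaled reads in naked mole-rat livers, 967 to 2183 in guinea pig, 109 to 500.1 in Damaraland and 29.0 to 76.7 in mouse. The sum was lowest in mouse, where Dsg2 was highest. Between the mole-rats, the sum and Dsg2 were both higher in naked than in Damaraland livers. The naked mole-rat sum was mostly Epcam, at 1883 to 2707 scaled reads, whereas Krt19 was 185 to 264 in naked mole-rat and 732 to 1963 in guinea pig. For Dsc2 the species with the highest sum was also the species with the highest level. The part of these cells in the Dsg2 and Dsc2 results was not tested. The hepatocyte markers with a row, 5 of 6, summed to 893314 to 2921431 over all livers, with Damaraland livers at 1571370 to 2186151 inside that range.

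Jup in liver was highest in guinea pig, at 1668, 1298 and 1579 scaled reads. Naked mole-rat livers were lowest at 349.8, 431, 369 and 371, and Damaraland livers lay between at 626, 701, 604, 654 and 738. The mouse libraries stood apart from each other at 530 and 1205, on either side of the Damaraland range. Naked mole-rat minus guinea pig was -1.89 (SE 0.20; limma adjusted p = 3.37e-07) and Damaraland minus guinea pig -1.14 (SE 0.20; limma adjusted p = 6.44e-05), both called. Against mouse, naked mole-rat differed by -1.01, at the size threshold, and Damaraland by -0.26 (95% interval -0.73 to 0.21). Without mouse replicate 2 the naked mole-rat against mouse difference was -0.44 (limma adjusted p = 0.0779). It also fell short of 1 in size without naked mole-rat replicate 1 (-0.98) or 3 (-0.999), with a replicate block (-0.998), and with libraries centred on their median (-0.94), on their upper quartile (-0.91) or normalised by quantiles (-0.89). The average of mole-rats against outgroups, -1.08 (SE 0.15), was -0.79 without that library, and neither Jup nor Dsg2 was then called.

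Cdh2 was highest in naked mole-rat livers, at 5582, 5362, 6659.9 and 6485 scaled reads, above every library of the other species. Damaraland livers held 4104, 3481, 3241, 4531 and 3505, guinea pig livers 4899.7, 3041 and 5028, and mouse livers 2745 and 1819. Naked mole-rat minus mouse was 1.41 (SE 0.23; limma adjusted p = 4.1e-05) and called, while naked minus Damaraland mole-rat was 0.67 and naked mole-rat minus guinea pig 0.50, both under the size threshold.

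Dsp and Pkp2 moved least in liver, with no call in any pair. Dsp means ran from 11.23 ± 0.19 (SD, n = 4) in naked to 11.78 ± 0.15 (SD, n = 5) in Damaraland mole-rat, with guinea pig at 11.36 ± 0.11 (SD, n = 3) and mouse at 11.41 ± 0.03 (SD, n = 2). Naked minus Damaraland mole-rat was -0.55 with a 95% interval from -0.84 to -0.27, and all naked mole-rat libraries lay below all Damaraland libraries. Pkp2 means were 9.45 ± 0.07 (SD, n = 4) in naked mole-rat, 9.47 ± 0.17 (SD, n = 3) in guinea pig, 8.97 ± 0.02 (SD, n = 2) in mouse and 8.87 ± 0.11 (SD, n = 5) in Damaraland mole-rat. Its widest difference was -0.60 for Damaraland minus guinea pig (95% interval -0.88 to -0.33).

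Gja5 was near the bottom of the scale in every liver. Damaraland livers held 29.0, 56.1, 70.1, 34.7 and 55.2 scaled reads, naked mole-rat livers 15.2 to 23.8, guinea pig livers 18.3 to 23.1 and mouse livers 9.44 and 8.70. Damaraland libraries were again above all others, as in heart, but by far less. Damaraland minus mouse was 1.10 (SE 0.21; limma adjusted p = 0.000181) and called, although it was 0.83 and not called with quantile normalisation. With voom on the recovered reads, which does not compress low values, it was 2.36 on the log2 scale and called. Damaraland minus guinea pig was 0.63 (SE 0.18) and naked minus Damaraland mole-rat -0.68 (SE 0.17), both under the size threshold on this compressed scale. In 4 of the 7 genes the female Damaraland liver lay inside the range of the males. Outside it were Dsp (11.53 against 11.74 to 11.91) and Cdh2 (12.16 against 11.68 to 12.02), and Pkp2 lay just below (8.79 against 8.81). The share over all genes was not counted, and with a single female library the part of sex was not tested.

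**Figure D4:**
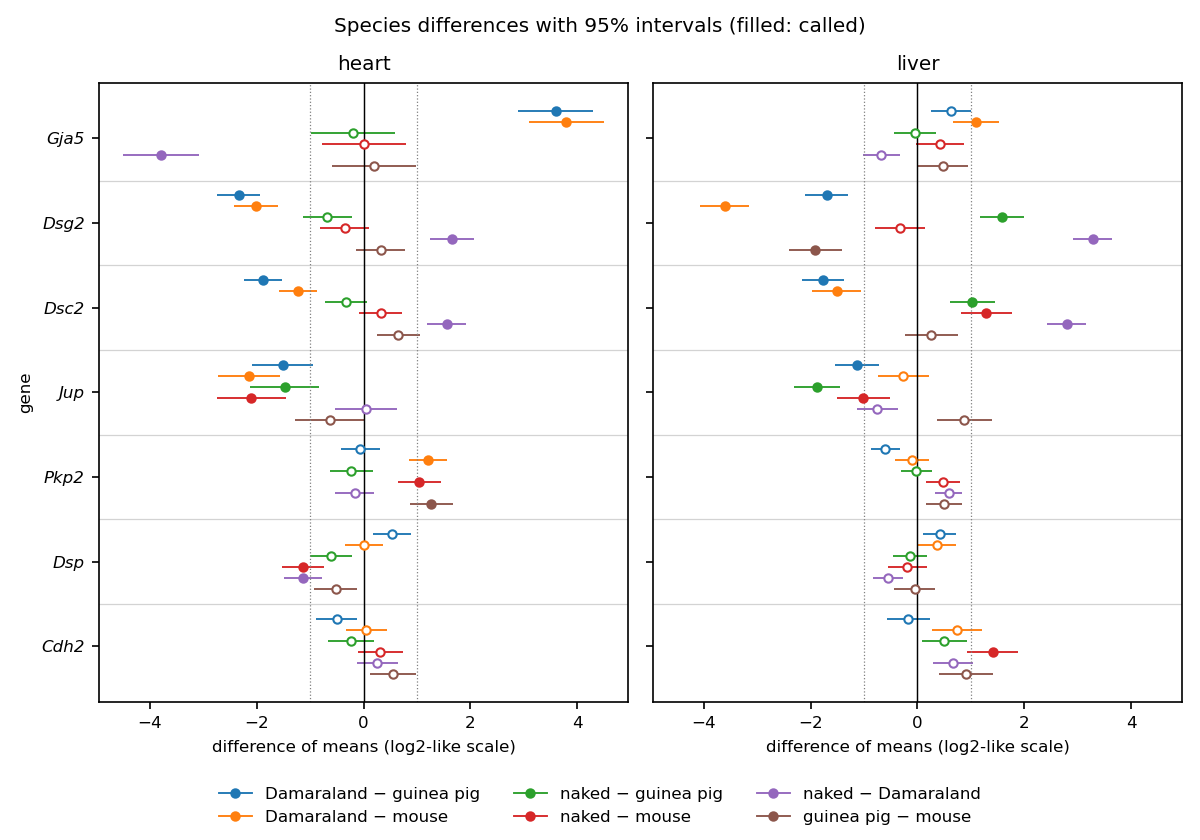
Differences of species means for the 7 genes in heart (left) and liver (right), with 95% intervals from limma; colours are the 6 pairs of species, filled points were called, and dotted lines mark differences of 1 on the log2-like scale. The Damaraland differences of Dsg2 and Dsc2 lie on the same side in both tissues. Those of Gja5 are larger in heart, at 3.60 and 3.80 against the outgroups, than in liver, where the scale compresses its low values. By voom, Gja5 in Damaraland minus mouse was 4.63 in heart and 2.36 in liver.

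Levels in the 2 tissues were set side by side as shares of a library's reads outside mitochondrial genes; this is a description, since the tables were normalised separately. Desmoplakin was 10.5- to 14.1-fold higher in heart than in liver across the species, and Pkp2 5.15- to 14.7-fold higher. Gja5 was 45.0-fold higher in Damaraland heart, against 5.39- to 8.28-fold in the other species. The naked mole-rat ratio of 7.55 was 2.65 without heart replicate 3. Cdh2 was 1.93- to 2.82-fold higher and Jup 1.57- to 4.96-fold higher. The desmosomal cadherins did not share 1 direction: Dsg2 was 4.04-fold higher in guinea pig heart and 2.38-fold higher in Damaraland heart, but in mouse its heart to liver ratio was 0.674 and in naked mole-rat 0.967 (0.772 without heart replicate 3). For Dsc2 the ratio ran from 0.567 in naked mole-rat to 1.30 in guinea pig. The summed cardiomyocyte markers in liver were 0.120% to 0.183% of their level in heart. The liver level of the 7 genes was at least 2.22% of that in heart. Hepatocyte markers in heart were 1.74% of their liver level in naked mole-rat and 0.0288% to 0.158% in the other species. Naked mole-rat heart held 96.7% of the liver level of Dsg2 and 56.7% of that of Dsc2. The part of carry-over between the tissues in these levels was not tested.

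The other genes of these junctions were counted from lists of 71 further genes, of which 55 had a row in each tissue and 36 were tested in heart. Mole-rats against outgroups called 6 of the 36 higher and 4 lower, beside 23.4% of all genes tested, and their median difference was 0.35 beside -0.01. By list, 0 higher and 1 lower of 3 other connexins and pannexins were called, 1 and 0 of 4 other desmosome genes, 0 and 1 of 11 adherens junction genes, 3 and 2 of 11 other intercalated disc genes, and 2 and 0 of 7 tight junction genes. Gjc1, which encodes connexin 45 of the conduction nodes, was lower by 1.70 (SE 0.13; limma adjusted p = 7.11e-09), with 11.1 to 51.2 scaled reads in naked mole-rat, 161 to 218 in Damaraland, 507 to 686 in guinea pig and 288 to 348 in mouse hearts. Naked mole-rat hearts were called lower for Gjc1 against each other species. Tmem65, a membrane protein of the intercalated disc, had an average difference of -1.76 that came from mouse: 4015 to 4632 scaled reads there, against 274 to 628 in the other 3 species. Cgn, encoding the tight junction protein cingulin, had an average difference of 1.49. Its scaled reads were 96.3 to 440.4 in naked mole-rat hearts, 17.5 to 105 in Damaraland hearts and 3.21 to 27.6 in the outgroups. Naked mole-rat hearts were called higher for Cgn against each other species. The Damaraland mean (6.78) lay above guinea pig (6.29) and mouse (5.95) by less than the size threshold. Evpl, encoding envoplakin of the desmoplakin family, was called higher in both mole-rats against both outgroups, at 148 to 239 scaled reads in naked and 20.6 to 218 in Damaraland hearts against 1.58 to 21.9 in the outgroups. Its Damaraland mean was 7.12 ± 0.85 (SD) and its mouse mean 6.08 ± 0.31 (SD), so that call lay close to the size threshold. The lowest Damaraland heart (20.6) was below the highest mouse heart (21.9), and the outgroup values were near the floor.

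In liver 42 of the 55 were tested, and mole-rats against outgroups called 7 higher and 7 lower, beside 28.1% of all genes tested. Their median difference was 0.14, beside 0.02. By list, 1 higher and 1 lower of 5 other connexins and pannexins were called, 1 and 0 of 5 other desmosome genes, 1 and 2 of 12 adherens junction genes, 1 and 2 of 10 other intercalated disc genes, and 3 and 2 of 10 tight junction genes. Gjb6, which encodes connexin 30, had 806 to 988 scaled reads in guinea pig livers and 0 reads in the 11 other liver libraries, where a count of 0 allows up to 2.15 to 4.15 scaled reads (3 reads, counting error only). Evpl was 292 to 669 scaled reads in Damaraland livers, 33.2 to 53.8 in naked mole-rat and 3.30 to 13.0 in the outgroups. Panx2, a pannexin channel gene, was called higher in both mole-rats against both outgroups, at 61.0 to 173 against 0 to 20.3 scaled reads. Ocln, encoding the tight junction protein occludin, was also higher in both, at 916 to 1654 against 411 to 576. Nectin3, encoding an adhesion molecule of adherens junctions, was lower by 2.27 (SE 0.20; limma adjusted p = 3.18e-08), with 60.1 to 224 scaled reads in Damaraland, 398 to 693 in naked mole-rat, 1640.0 to 2374 in guinea pig and 1061 to 1254 in mouse livers.

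The genes closest in pattern to the member with the widest range of species means were found by the root mean square difference of library values after each gene was centred on its mean over the 14 libraries of the tissue. For Gja5 in heart these were Cst9 (0.52), Tnip3 (0.52) and Nme7 (0.53), all highest in Damaraland hearts with means of 8.86, 10.26 and 10.87. For Dsg2 in liver they were Dynlt3 (0.31), 9530068E07Rik (0.33) and Mxi1 (0.33), all lowest in Damaraland livers with means of 5.72, 7.90 and 5.28. These are descriptions over 14 libraries, most of whose variation lies between species.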

How the data were processed

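Ribosomal-RNA-depleted total RNA from 14 hearts and 14 livers was sequenced. Per the submitters' processing notes the tools were cutadapt, Salmon and DESeq2 and the build named was GRCm38; the assignment of genes between species is not given in the sources used here. The deposited tables, one per tissue, hold log2-like variance-stabilised values. A gene with 0 reads has 5.3645 in heart and 4.2893 in liver, the floor of the scale. Mitochondrial reads were 0.00339% to 0.0279% of Damaraland libraries and 2.88% to 26.9% of the others. A further 26 columns belong to other samples and were not used. Symbols were matched for 13921 of 13928 mouse gene identifiers. Inverting the transform gave whole reads for 100% of values (tolerance 0.001).

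For each tissue a linear model was fitted to the values with limma (version 3.58.1, R 4.3.3), with species coefficients over all 14 libraries, a variance trend and Benjamini-Hochberg adjustment. Genes with a mean under the floor plus 1 were left out, leaving 10667 in heart and 10887 in liver. A gene shifted in both mole-rats was called with the same sign in all 4 contrasts of a mole-rat with an outgroup. The log2(scaled reads + 1) alternative used a pseudocount of 1. The pipeline was tested on simulated data. Members, lists and tests were chosen with earlier results of these data known. Named genes are all members, and of the other junction lists those shifted in both mole-rats, the 2 that rose most and the 2 that fell most among the genes called in mole-rats against outgroups; marker genes are given beside results, and the 3 closest genes for the member with the widest range of species means. Replicate numbers were not used to pair samples in the main fit. The labels name separate animals. Reads of different species were counted on different transcripts, and the part of transcript length and annotation in a species difference was not tested. No sequence is shown.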

Additional observations from a re-analysis of the deposited data

Results flagged for a closer look

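Pkp2 in Damaraland liver replicate 2, at 9.06, stood apart from the other 4 libraries of its group (8.79 to 8.86); chance flags about 1 in 20 groups, and 21 groups were examined. Jup differed between the outgroups in opposite directions in the 2 tissues: guinea pig minus mouse was -0.63 in heart and 0.88 in liver, with all guinea pig libraries below all mouse libraries in heart and above them in liver. Neither was called, the difference between tissues was not tested, and the 2 mouse livers lay at 9.15 and 10.28.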

How the results depend on the processing

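Over 1267 values of single genes under the alternatives, 1216 kept their direction and side of the threshold, 44 lost a call, 7 gained one and none changed sign; 18 of the losses came from testing against a difference of 1. Without a size threshold the count of the 7 genes called in mole-rats against outgroups was 6 in heart and 4 in liver, the liver pair calls were 29, and the other junction genes called were 27 in heart and 33 in liver. Tested against a difference of 1, pair calls were 10 in heart and 8 in liver, genes called in both mole-rats in heart 0, genes called in the liver average 0, and other junction genes 3 in heart and 8 in liver. With only genes above the table median, 7 other junction genes were called in liver. The share of all genes called was not counted under these alternatives, so their counts are not read as results about the junction genes. The liver average called 1 gene in place of 2 with libraries centred on their median (1) or upper quartile (1), with array weights (1) and with the replicate block (1). Gja5 gained a call in the liver average, at 1.12 with voom and 1.07 with log2(scaled reads + 1).

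Leaving out each library in turn gave 0 to 1 genes called in both mole-rats in heart (0 without naked mole-rat replicate 3) and 0 to 2 genes in the liver average: 0 without mouse replicate 2, and 1 without Damaraland replicate 3 or 5, guinea pig replicate 1, or naked mole-rat replicate 3 or 4. Where 1 mouse liver remained, it was assumed to vary like the other groups. Samples of the same replicate number had correlations of their deviations of -0.26 to 0.30 in heart and -0.23 to 0.15 in liver. Those of different numbers had -0.23 to 0.23 in heart and -0.28 to 0.33 in liver. Whether samples of the same number shared a batch was not tested. The block left the heart counts as they were. Depth limits Gja5 in liver, at 8 to 98 reads per library.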

Other observations

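The genes of this paragraph were chosen after their values were seen. Cdh1, which encodes the E-cadherin that hepatocytes carry beside N-cadherin, had 325 to 441 scaled reads in naked mole-rat livers, against 3024 to 5650 in Damaraland, 2715 to 3741 in guinea pig and 1947 to 1987 in mouse livers. Naked mole-rat livers were called lower against each other species by limma (-3.34 from Damaraland mole-rat with SE 0.17, -2.88 from guinea pig with SE 0.19 and -2.25 from mouse with SE 0.22), while their Cdh2 was the highest of the 4 species. Ppl, encoding periplakin, the usual partner of envoplakin, was called higher in Damaraland livers against each other species (349 to 1044 scaled reads, against 104 to 272 in the outgroups) and lower in naked mole-rat livers (21.9 to 41.5). In heart, Nectin2, which encodes an adhesion molecule of adherens junctions, was called lower in Damaraland mole-rat against each other species (133 to 271 scaled reads, against 370.4 to 437 in naked mole-rat, 514 to 536 in mouse and 1135 to 1388 in guinea pig).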
